A study of Rattus norvegicus with 8 samples.

Results

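DNA methylation was described at the promoter regions of 6 genes for developmental transcription factors and cofactors, Tbx20, Six2, Lhx5, Zic1, Zfpm2 and Prrx2, in rat bladder tumours and in bladders of untreated rats. These are 6 genes of a list that the study had drawn up as more methylated in the tumours, beside 31 further genes for such factors and 209 others. Each gene was followed over its listed region and over every measured CpG up to 1 kb on either side, called its window here. The windows held 478 CpGs of the 3403609 listed in the series. Because the genes were listed on the comparison of these same tumours with these same controls, every difference between the groups given for them is a description, and none is supported by a test.

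The rats were F344/DuCrj, male per the study's methods, and 10 weeks old at the start. They drank water with 0 or 200 ppm of dimethylarsinic acid (DMA, the study's DMAV), an organic arsenic compound that causes bladder tumours in rats, for 104 weeks. The controls were 3 samples labelled as bladder urothelium, which the methods call bladder tissue. The treated group was 5 samples labelled as bladder tumor, here UC 1 to UC 5 after the study's name for them, urothelial carcinoma. The methods took tumours over a stated size to be carcinomas without histology, and no source used here states that the 5 came from 5 animals. The DNA was bulk DNA of a tissue or tumour, so a larger share of methylated cells and a higher level per cell cannot be told apart. Methylation data hold no marker expression, so the cell types in the samples could not be checked.

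A CpG is a cytosine followed by a guanine, and the methylation of CpGs in a promoter is generally linked to a silent gene. Genes for developmental transcription factors usually have promoters rich in CpGs, which in most adult tissues are free of methylation while Polycomb proteins hold the gene silent. In many carcinomas such promoters are among those that gain methylation. Among the 6 genes, Tbx20 encodes a T-box factor of the developing heart, Lhx5 a LIM homeodomain factor of the forebrain, and Zic1 a zinc finger factor of the cerebellum and neural crest. Six2 encodes the homeodomain factor that maintains nephron progenitors in the kidney, Prrx2 a paired-related homeodomain factor of limb and craniofacial mesenchyme, and Zfpm2 (also called FOG2) a zinc finger cofactor that binds GATA factors in heart and gonad.

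Promoter sequences of 300 bases, 250 before and 50 after the annotated start, were available for 3 of the 6 genes from RefSeq (GRCr8). For Tbx20 and Prrx2 the spacing of the measured CpGs placed them in the sequence without a mismatch, at 17 of 17 and 28 of 28 CpGs, against 5 of 14 and 8 of 24 for the next best placement. Six2 could not be placed in this way, with 11 of 30 at best, and its sequence is not shown. The Tbx20 promoter is shown because its listed region lies inside it, at chr8:31533960-31534259 on the minus strand of GRCr8. Capitals mark the 4 CpGs of the listed region, which lie 184 to 222 bases before the start.

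Tbx20: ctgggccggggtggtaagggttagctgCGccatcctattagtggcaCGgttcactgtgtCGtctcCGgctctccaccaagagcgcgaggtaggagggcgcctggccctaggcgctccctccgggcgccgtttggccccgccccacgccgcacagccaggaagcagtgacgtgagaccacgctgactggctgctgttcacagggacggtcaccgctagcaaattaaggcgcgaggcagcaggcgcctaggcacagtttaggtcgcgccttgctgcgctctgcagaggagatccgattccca

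The Prrx2 promoter, at chr3:34530081-34530380 on the plus strand of GRCr8, is shown because methylated CpGs lie before it and unmethylated ones within it. The exact place of the edge between them was not resolved and may lie inside the sequence, whose first CpGs were not measured. Capitals mark the 28 measured CpGs, of which 6 belong to the listed region, 115 to 173 bases before the start.

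Prrx2: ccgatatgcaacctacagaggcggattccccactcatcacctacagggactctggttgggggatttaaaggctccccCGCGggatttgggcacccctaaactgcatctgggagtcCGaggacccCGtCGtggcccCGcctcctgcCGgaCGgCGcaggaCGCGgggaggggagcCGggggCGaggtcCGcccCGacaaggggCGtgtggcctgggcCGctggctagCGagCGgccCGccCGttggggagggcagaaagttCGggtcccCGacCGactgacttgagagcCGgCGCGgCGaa

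The Tbx20 sequence holds 26 CpGs and the Prrx2 sequence 30, where the median of 33469 rat promoters of the same length was 7. The assay, reduced representation bisulfite sequencing (RRBS), reads DNA next to the cut sites of 2 enzymes, MspI (CCGG) and TaqI (TCGA). Both letter strings read the same on both strands and cannot overlap each other. CCGG was found 3 times in each of these sequences, and 51.4% of all the promoters hold it. TCGA was in neither, and 23.0% of the promoters hold it. What is measured around each gene therefore comes in stretches next to such sites, with unread DNA between them.

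The methylation level is the share of cytosine calls among all calls at the CpGs of a stretch, in percent, with CpGs of at least 3 reads in a sample. Each sample held between 51434938 and 73836223 calls at 2526077 to 2821347 CpGs, and the median CpG had 14 to 18 reads. The windows of the 6 genes took 196 to 256 of every 1000000 calls of a sample. Intervals given for single samples are 95% Wilson intervals and cover counting error only.

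The listed regions of Tbx20, Lhx5 and Zfpm2 were nearly free of methylation in all 3 controls and had low levels in every UC. The Tbx20 region, chr8:25904730-25904788 in rn6, is 59 bases long and holds 4 measured CpGs with 150 to 271 calls a sample. Its level was 4.0%, 1.99% and 2.4% in controls 1 to 3, and 19.2%, 19.5%, 4.49%, 15.5% and 11.6% in UC 1 to UC 5. Every UC was above every control, but the intervals of the lowest UC and the highest control overlapped, with 2.19 to 8.97% for UC 3 and 1.85 to 8.45% for control 1. The means were 2.80 ± 1.06% (SD, n = 3) and 14.0 ± 6.23% (SD, n = 5), a difference of 11.3 percentage points.

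Within the Tbx20 region the CpG nearest to the gene's start, at position 25904730, differed most. It measured 5.88%, 5.88% and 7.02% in controls 1 to 3 and 35.6%, 48.2%, 8.33%, 30.8% and 26.4% in the UCs, with 34 to 73 reads. The UC mean was lower at each further CpG of the region away from the start, with 29.9%, 13.2%, 7.51% and 3.52%. At the farthest, 25904768, the UCs lay between 2.13% and 6.25% and the controls between 0% and 5.13%, so the groups overlapped. This order did not go on outside the region. The neighbouring CpG on the side of the start, 25904713, had a UC mean of 3.27%. The one on the other side, 25904789, had 10.0%. Both 25904730 and 25904789 are the CpG of a CCGG cut site, and the part of this in their levels was not tested. Of the 11 CpGs in the window that every sample read 10 times or more, the smallest difference was 0.126 points, at 25904684, in the left flank. Further out, at 501 to 600 bases to the left of the region, the control mean was 2.22% and the UC mean 20.5%, from 20 to 95 calls a sample. A single CpG there, 25904179, named after its values were seen, had 11.1%, 11.1% and 0% in the controls and 100%, 100%, 75%, 53.8% and 57.9% in the UCs, from 4 to 19 reads. The other 4 CpGs of that stretch had UC means of 0% to 10%.

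The Lhx5 region, chr12:41671436-41671545, spans 110 bases with 10 CpGs and 293 to 500 calls a sample. Control levels were 0%, 1.43% and 0.741%, where 0 of 313 calls in control 1 allows a level of up to 0.958%. The UCs had 16%, 14.6%, 5.92%, 8.19% and 6.92%, so every UC stood above every control. The difference of the means, from 0.724 ± 0.716% to 10.3 ± 4.63%, was 9.59 points, the smallest of the 202 listed regions with enough CpGs in every sample (3 or more). The difference was uneven from CpG to CpG. At 41671531, the CpG of the window that differed most, the UCs had 41.7%, 29.7%, 0%, 37.5% and 30%, against 0%, 5.88% and 0% in the controls, so that UC 3 overlapped the controls there. At the region's first CpG, 41671436, no UC exceeded 5.56%.

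The Zfpm2 region, chr7:79471299-79471331, holds 5 CpGs in 33 bases with 112 to 239 calls. The controls had 4.35%, 4.35% and 2.51%. The UCs had 21.3%, 18.9%, 6.20%, 11.6% and 9.58%, all above the controls. The mean was 3.74 ± 1.06% in the controls and 13.5 ± 6.37% in the UCs, 9.78 points apart. The CpG with the largest difference in this window, 79471289, lies 10 bases before the region and had 1.85%, 0% and 0% in the controls against 45.9%, 9.09%, 2.33%, 25% and 23.2% in the UCs. The left flank differed by 8.69 points and the right flank by 2.76, from 1.15 ± 0.568% to 3.91 ± 1.03%. The Zfpm2 window had 35.2 to 38.4 calls per 1000000 in the controls and 24.3 to 32.1 in the UCs, ranges that do not overlap, and the part of this lower coverage in the levels was not tested.

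**Figure D1:**
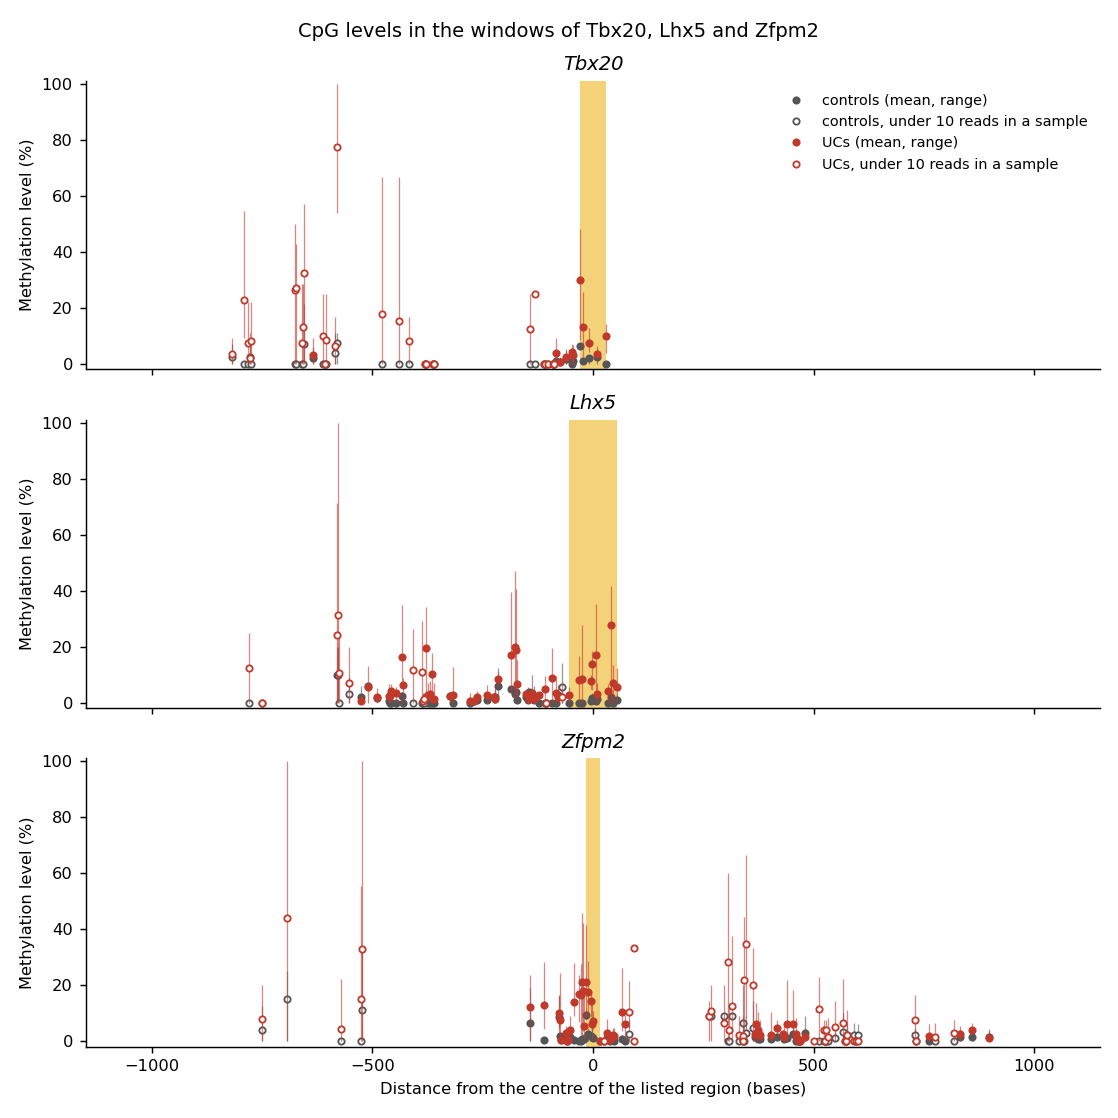
Methylation level in percent of each measured CpG against its distance in bases from the centre of the listed region (yellow) for Tbx20, Lhx5 and Zfpm2. Points are the mean and lines the range of the 3 controls (grey) and the 5 UCs (red) over the samples with at least 3 reads, and open points are CpGs with under 10 reads in 1 or more samples. The controls lie near 0% over most of each window and the UC means of well-read CpGs reach 29.9% at Tbx20, 27.8% at Lhx5 and 21.1% at Zfpm2.

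For the Tbx20 flanks together the control mean was 0.924% and the UC mean 7.24%, and for those of Lhx5 they were 1.64% and 5.56%. The Lhx5 left flank of UC 3 was 1.90%, just above the 1.74% of control 3, while UC 1 and UC 2 had 8.62% and 8.16%. Part of the latter came from single CpGs such as 41671313, named after its values were seen, where UC 1 and UC 2 had 47.1% and 39.5% and no other sample exceeded 5.49%. To the right of the Tbx20 and Lhx5 regions only 1 CpG each was measured, so little can be said of that side. At Tbx20 this CpG had 0% in every control and 4% to 14.3% in the UCs. At Lhx5 it had 0% to 2.94% in the controls and 0% to 12.5% in the UCs.

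At Zic1 every UC was above every control at 43 of the 102 CpGs with at least 3 reads in all samples, the most of the 6 windows. That is 42.2%, where the share over all such CpGs of the genome was 8.05%. The listing used this contrast, so nothing is read from the higher share. By part, it was 41 of 80 in the left flank, 1 of 3 in the listed region and 1 of 19 in the right flank. The region, chr8:98738470-98738513, has 4 CpGs in 44 bases with as few as 15 calls in control 2, the second lowest among the 202 regions. Its levels were 1.82%, 0% and 12.5% in the controls, and 18.2%, 25.5%, 8.22%, 27.5% and 16.3% in the UCs. Control 3 was above UC 3, so 4 of 5 UCs exceeded every control. The 15 calls of control 2 allow a level of up to 20%, which is above 3 of the 5 UCs. The means were 4.77 ± 6.75% and 19.2 ± 7.73%.

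The left flank of Zic1 was read far more deeply, with 2667 to 4708 calls a sample over 80 to 86 CpGs. The controls had 3.31%, 3.16% and 2.25%, and the UCs had 37.6%, 33.7%, 9.52%, 23.3% and 19.0%. The groups did not overlap, the difference of the means was 21.7 points, and the interval of UC 3, the lowest, was 8.50 to 10.7%. By distance, the bases 301 to 900 before the region had UC means of 17.1 to 36.5% in every 100 bases, against 1.47 to 4.53% in the controls. From there to the region the UC means were 7.18 to 9.99% and the controls 1.80 to 5.41%. On the right, 152 to 298 calls gave 3.94 ± 0.573% and 16.5 ± 6.93%, and UC 3 with 5.26% was again close to the controls.

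Single CpGs of the Zic1 left flank were almost fully methylated in some UCs. The one with the largest difference, at 98737793, had 9.38%, 17.7% and 7.53% in the controls and 85.1%, 96.2%, 45.8%, 74.5% and 59.6% in the UCs. The smallest difference, 0.116 points, was at 98738249, where the UCs ranged from 0% to 16.1%. UC 1 and UC 2 differed from UC 4 and UC 5 in which CpGs were high. At 98738101, named after its values were seen, UC 1 and UC 2 had 95.2% and 93.5% and UC 4 and UC 5 had 18.2% and 26.3%. At the next measured CpG, 98738110, with the same 31 to 46 reads, UC 1 and UC 2 had 59.5% and 64.5% and UC 4 and UC 5 had 72.7% and 81.6%. The order of the UCs thus turned between neighbouring CpGs.

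**Figure D2:**
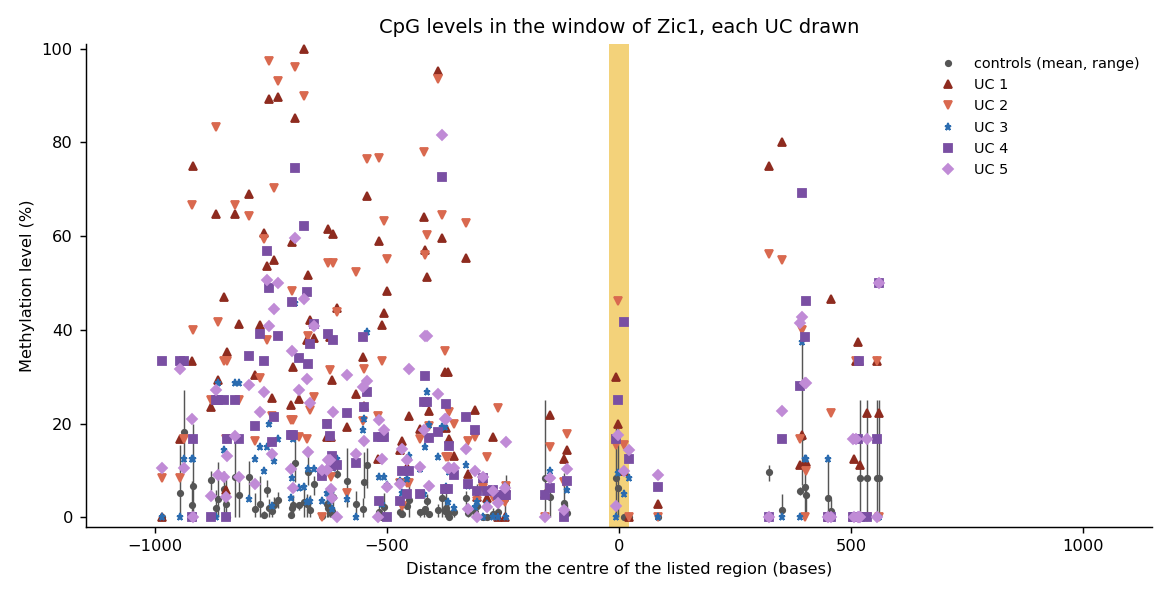
Methylation level in percent of the 102 CpGs of the Zic1 window with at least 3 reads in all 8 samples, against distance in bases from the centre of the listed region (yellow). Grey points and lines are the mean and range of the 3 controls, and each coloured marker is 1 UC, with UC 1 and UC 2 highest and UC 3 (stars) lowest over most of the left flank.

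Six2 was the gene with high levels in the controls, and this height was confined, among the measured CpGs, to a few thinly read ones. The listed region, chr6:8956322-8956353, holds 4 measured CpGs in 32 bases with 16 to 56 calls a sample, which is 4 to 14 reads for each CpG. The controls had 95%, 43.8% and 55.4%, and the UCs had 93.2%, 95%, 95.8%, 96.4% and 100%. The means were 64.7 ± 26.9% and 96.1 ± 2.51%, but control 1 was as high as UC 2 and above UC 1, so 3 of 5 UCs exceeded every control. Without control 1 the difference was 46.5 points and without control 2 it was 20.9, where all samples gave 31.4. The interval of control 2 ran from 23.1% to 66.8%. All 4 CpGs of a sample had the same number of reads.

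The flanks of the Six2 region were nearly unmethylated in the controls. The left flank, with 1257 to 2076 calls a sample, had 1.89%, 1.60% and 1.35%, and the right flank had 2.65%, 2.82% and 2.04%. The only other CpG above 40% in the control mean was 8956354, the base after the region's end, with 60.0%, 50% and 14.3%. The 100 bases to the left of the region had at most 1.80% in any control, and the next measured stretch on the right had 0% in all 3. In the controls the Six2 region therefore stood 62.8 points above its flanks, the largest such gap of the 197 listed regions with measured flanks, whose median gap was -0.16 points. Its control level was the third highest and the range among its controls, 51.3 points, the widest of 202, while its lowest call count ranked number 3 from the bottom.

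The UCs had higher levels at the outer ends of the Six2 window. In the farthest 100 bases on the left the controls had 3.28%, 2.93% and 1.83%, and the UCs had 25.4%, 27.9%, 9.85%, 12.6% and 14.5%, from 419 to 820 calls. Most of this came from a few CpGs. At 8955348, the CpG with the largest difference among the 40 with 10 or more reads in every sample, the controls had 13.6%, 3.57% and 4.39%, and UC 1 and UC 2 stood apart with 70.1% and 77.0% from the other UCs with 20.3%, 19.6% and 22.6%. On the right, at 801 to 900 bases, the means were 3.40% and 17.0%. Closer in, at 501 to 600 bases on the left, both groups were near 0%, with means of 0.509% and 0.770%.

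The Prrx2 window had methylated DNA on the left and unmethylated DNA on the right, with the listed region across the edge. The region, chr3:9681594-9681828, is 235 bases long and 8 CpGs were listed in it, but only 1 had reads in all 8 samples, and the calls numbered 21 to 71. It is the 1 member without enough CpGs in every sample, and its levels come from different CpGs in different samples. They were 8.33%, 21.7% and 8.57% in the controls and 14.3%, 41.7%, 51.4%, 31.4% and 31.0% in the UCs, so 4 of 5 UCs were above every control. The 1 CpG shared by all samples, at 9681594, had 2.78%, 16.7% and 15.0% against 14.3%, 35.5%, 51.4%, 65.0% and 43.2%.

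The left flank of Prrx2 was partly methylated in the controls and more so in the UCs. Its 10 CpGs, read in every sample, had 42.8%, 55.6% and 40.1% in the controls and 90.2%, 87.9%, 69.5%, 72.6% and 73.4% in the UCs. No UC overlapped a control, and the means of 46.2 ± 8.30% and 78.7 ± 9.58% were 32.5 points apart. The levels were lower towards the gene, in the controls, from 73.0% at 201 to 300 bases before the region to 61.6% and 39.5% in the next 2 steps of 100 bases, and in the UCs from 94.1% to 89.9% and 75.4%. The CpG with the largest difference, 9681571, had 25%, 26.9% and 19.3% in the controls and 88.6%, 91.2%, 59.4%, 55.3% and 61.1% in the UCs.

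The right flank of Prrx2, which holds the printed promoter's other measured CpGs and the start itself, was unmethylated in every sample. Its 63 CpGs with 1783 to 2936 calls had 0.637%, 0.542% and 0.681% in the controls and 0.252%, 0.532%, 0.953%, 0.778% and 0.654% in the UCs. The groups overlapped and the means differed by 0.0139 points. At the 6 region CpGs inside the printed sequence, read in only some samples and with 3 to 5 reads, every level but 1 was 0%, the exception being 25% in UC 5 at 9681811.

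**Figure D3:**
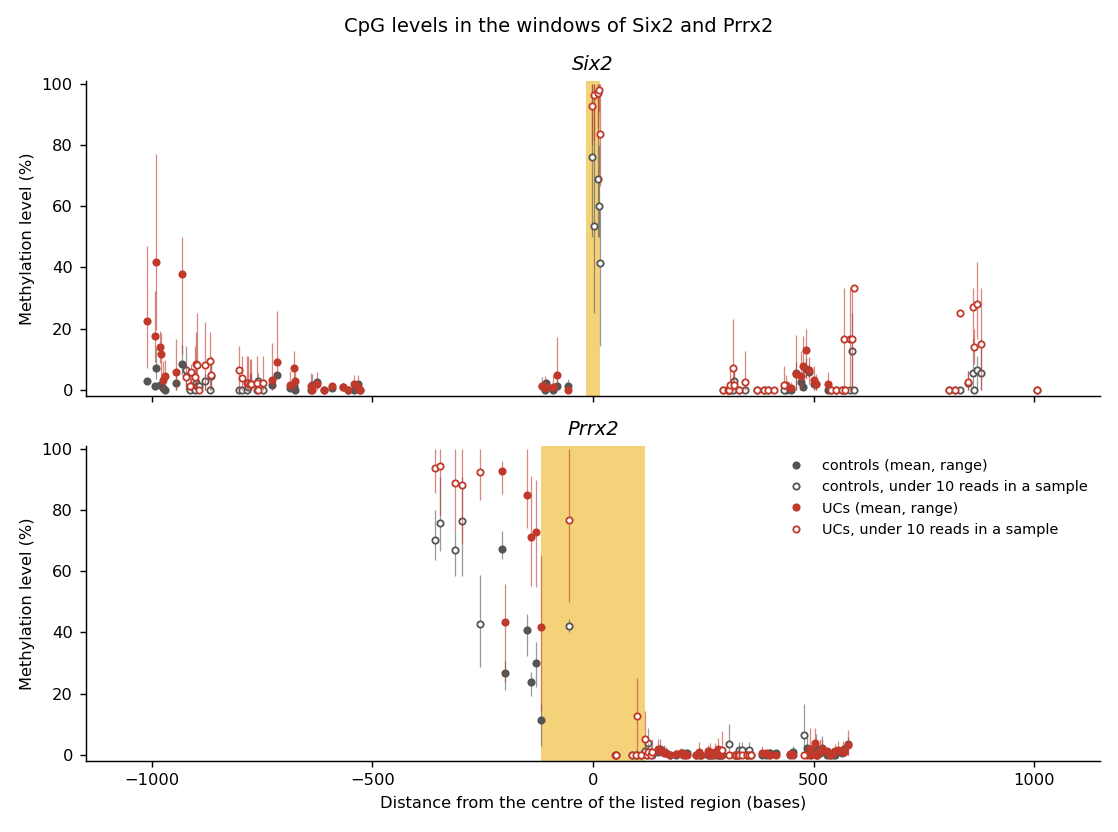
Methylation level in percent of each measured CpG of the Six2 and Prrx2 windows against distance in bases from the centre of the listed region (yellow), with points for the mean and lines for the range of the 3 controls (grey) and 5 UCs (red), and open points for CpGs with under 10 reads in 1 or more samples. At Six2 the 4 region CpGs and the next base stand high between flanks near 0%, and at Prrx2 the left flank is high and the right flank stays near 0% in both groups.

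**Figure D4:**
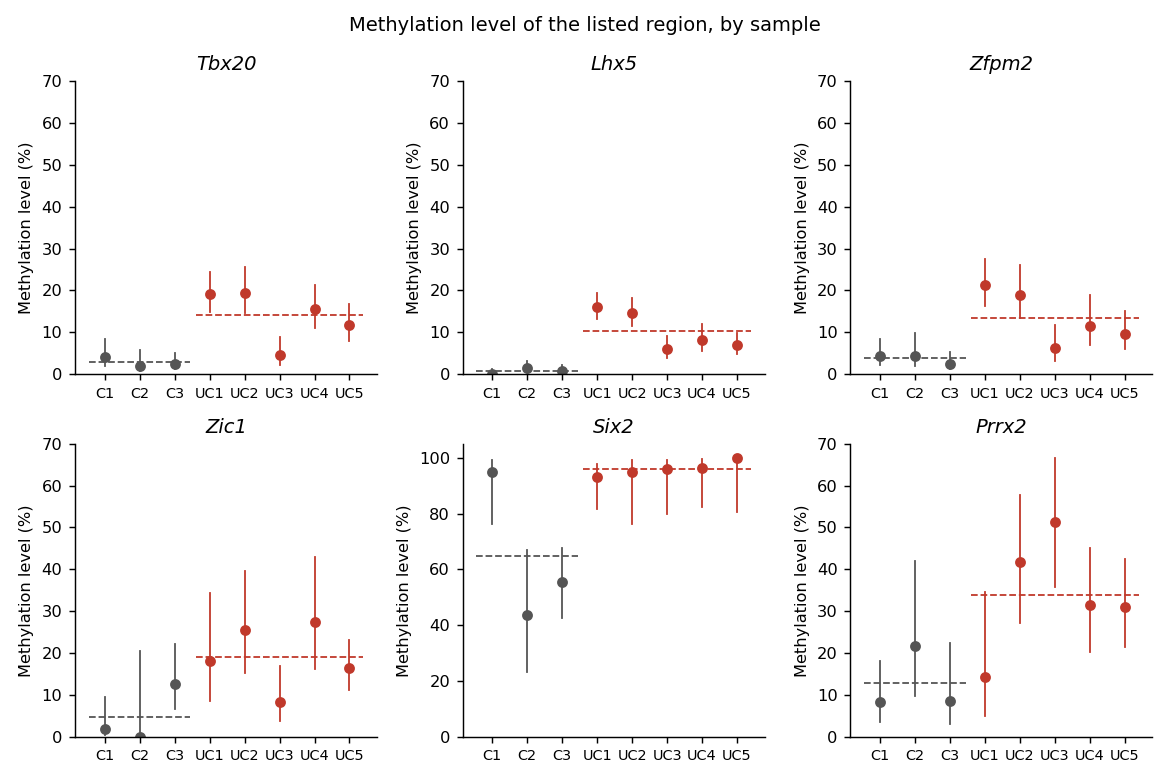
Methylation level in percent of the listed region of each gene in controls 1 to 3 (C1 to C3, grey) and UC 1 to UC 5 (red), with 95% Wilson intervals as lines and group means as dashed lines; the Six2 panel has a taller axis. Tbx20, Lhx5 and Zfpm2 show every UC above every control, while at least 1 UC lies within or below the control range at Zic1, Six2 and Prrx2.

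Counted over CpGs, 409 of the 478 had at least 3 reads in all 8 samples, and 386 of these had a control mean under 10%. Every UC was above every control at 80 of the 409 CpGs, 19.6%, where the share over all 2052737 such CpGs of the genome was 8.05%. The listing used this contrast, so nothing is read from the higher share. No CpG of the windows had every UC below every control. The smallest differences among well-read CpGs lay just below 0, with -1.73 points at 8956232 for Six2, -2.37 at 41671345 for Lhx5, -1.41 at 79471795 for Zfpm2 and -2.22 at 9682217 for Prrx2. Zic1 held 43 of the 80, Six2 and Zfpm2 10 each, Lhx5 and Prrx2 6 each, and Tbx20 5. By side, 63 of 230 CpGs in the left flanks and 7 of 152 in the right flanks were separated. Zic1 alone gave 41 of the 63, and Prrx2 gave 62 of the 152, with 0 separated. Left in rn6 is also upstream of the start at Prrx2 but towards the gene at Tbx20.

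A fit over 258144 tiles of 200 bases across the genome (quasi-binomial model, limits of a Benjamini-Hochberg adjusted p under 0.05 and a difference over 10 points) placed 9.29% of all tiles past its limits with higher levels in the UCs. Of the 33 tiles of the windows that it included, 7 were past the limits on that side and 0 on the other. These tiles come from the contrast that the listing used, so the count is a description and not a test of the 6 genes, and nothing is read from it.

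UC 3 had the lowest region level of the 5 UCs at Tbx20, Lhx5, Zfpm2 and Zic1. At Prrx2 its region level was the highest, but it came from 1 CpG, where UC 4 and UC 5 had 8. At the Prrx2 CpG shared by all samples UC 4 was above UC 3. In the left flank of Prrx2 UC 3 was the lowest UC, with 69.5%. Over the 202 regions of the whole list the median of UC 3 was also the lowest, 13.4%, where the other UCs had 22.7 to 25.4%. The windows other than that of Prrx2 also showed which UCs were alike, over CpGs with at least 10 reads in both samples of a pair. UC 1 and UC 2 differed by a root mean square of 8.58 points over 269 CpGs of these windows. UC 4 and UC 5 differed by 7.32 points over 265. All other pairs of UCs differed by 11.4 to 21.6 points and pairs of controls by 3.81 to 4.01. The UC 1 and UC 2 levels had a Spearman rho of 0.827 across their 269 CpGs, which share reads and neighbours and are not independent.

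**Figure D5:**
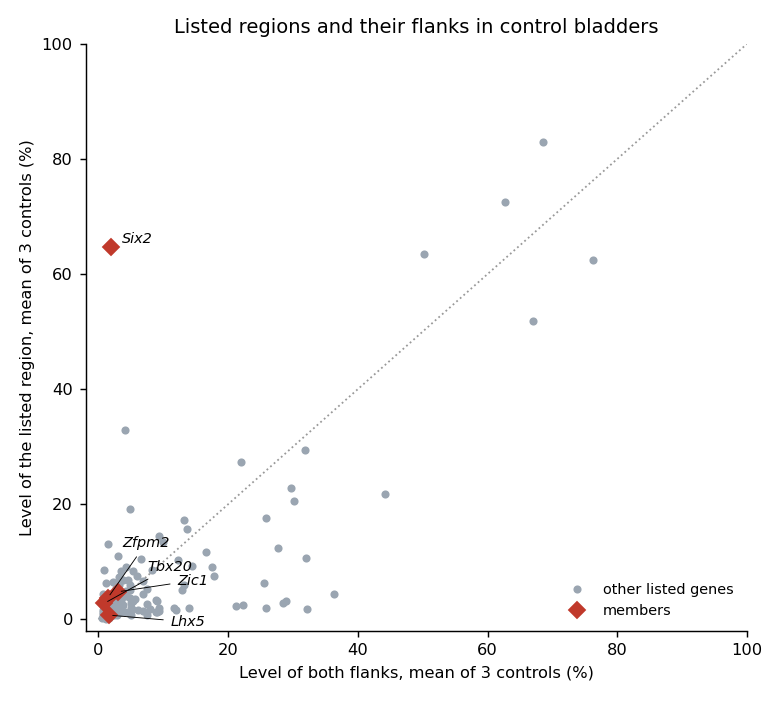
Mean methylation level in percent of the 3 controls in the listed region (vertical axis) against that of both flanks within 1 kb (horizontal axis) for the 197 regions of the list with enough CpGs, with the members as red diamonds and the dotted line marking equal levels. Six2 lies at 64.7% with flanks at 1.87%, and the other members shown lie near the origin.

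The study's list held 31 other genes for developmental transcription factors, chosen on the same samples, and 24 of their regions had enough CpGs in every sample. All 24 had a control mean under 10%, with a median of 2.15%, where 176 of all 202 regions were under 10%. In all 24 every UC was above every control, as in 188 of the 202. The listing used this contrast, so nothing is read from these counts. Their median difference was 16.2 points, from 10.4 to 42.3, and over all 202 regions it was 17.6. The 3 lowest in the controls were Vgll2, a cofactor of TEAD factors, with 0.248%, Isl1, a LIM homeodomain factor of heart and motor neurons, with 0.587%, and Neurod1, a bHLH factor of neurons and endocrine pancreas, with 1.24%. The 3 highest were Sim1, a bHLH-PAS factor of the hypothalamus, with 5.96%, Phox2a, a homeodomain factor of autonomic neurons, with 5.07%, and Nkx2-3, a homeodomain factor of gut and spleen, with 4.39%. None of the 24 had a control mean near the 64.7% of Six2, while 7 of all 202 regions were above 50%.

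The regions most like each member over the 8 samples, by the root mean square difference of their levels, were drawn from the whole list. For Tbx20 they were Tbc1d10b at 1.65 points and Zfpm2 at 2.02, and for Zfpm2 they were Tbx20 and Vstm4 at 2.09. Lhx5 was nearest to Ntf3 at 1.22 points and Adcyap1r1 at 2.43, and Zic1 to Mir935 at 3.75 and Gpx7 at 4.96. Six2 had no close neighbour, with Mpped1 at 15.3 points and Spesp1 at 16.0. Mpped1 and Spesp1 had control means of 72.5% and 63.9%.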

How the data were processed

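RRBS libraries (Ovation RRBS Methyl-Seq, MspI and TaqI, single reads on a NextSeq 500) of 3 controls and 5 UCs were used, grouped by the labels. The authors aligned reads to rn6 with RRBSMAP, removed PCR duplicates by a random barcode and deposited, for each sample and CpG, a count of C calls, a count of C and T calls, and an estimated count (the effective C and T calls, scaled by the share of G among opposite-strand calls). The labels also name HOMER. The listed regions came from the study's supplementary list. The members and the lists were chosen with earlier results of these data known.

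Levels are summed C calls over summed C and T calls at CpGs of at least 3 reads. A region counted as covered with at least 3 such CpGs in every sample. Flanks were 1 kb. Tiles of 200 bases were fitted with a quasi-binomial model with dispersions moderated in limma 3.58.1 (R 4.3.3), after a test on simulated data, and with Benjamini-Hochberg adjustment. Levels were computed in Python 3.11.15 with numpy 2.4.6 and pandas 2.3.3. Named were the 6 members, for each covered member the 2 regions nearest to it, the CpG with the largest and the smallest difference in each window among those with 10 reads in every sample, and the 3 highest and 3 lowest of the other factors in the controls; other CpGs named were chosen after their values were seen. Per the study's methods the controls were bladders of separate rats, while no source used here states this of the UCs, so the spread among UCs may be partly within an animal. The alternatives were other read minimums, denominators, averages, flank lengths, merged UCs, left-out samples and, for tiles, another model, other limits and the replicate number as a block.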

Additional observations from a re-analysis of the deposited data

How the results depend on the processing

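The difference between UCs and controls at the 6 regions and their flanks took 172 values under alternative settings. Of these, 165 moved by less than the SD among the UCs, 7 moved by more and 0 changed direction. Leaving out 1 of 5 UCs cannot move their mean by as much as that SD. The values with a UC left out are among the 165 and could not have counted as moved, so the tally is no measure of robustness for them. That SD was wide at the Prrx2 region, 13.8 points. Its difference of 21.1 points became 30.4 with only the CpG covered in all samples, which counts as a smaller move. The Tbx20 flanks differed by 6.31 points, by 4.73 with at least 10 reads per CpG, by 10.2 as a mean of the CpG levels and by 3.34 within 500 bases, and the Six2 flanks by 5.61 and, within 500 bases, by 2.19, where the outer CpGs, with the larger differences, are left out. Leaving out samples in turn gave 20.9 to 46.5 points for the Six2 region, with the lowest value without control 2 and the highest without control 1. With at least 10 reads per CpG the Six2 and Zic1 regions gave no value, because no CpG of theirs has this depth in every sample. The count of 80 CpGs with every UC above every control became 69 with at least 10 reads and 82 to 113 with 1 sample left out, where fewer samples have to be separated. The 7 tiles called higher became 15 with no minimum difference, 4 with a difference over 20 points, and 5 to 10 with 1 sample left out, the highest without UC 3.

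With the replicate number of the labels as a block, 4 tiles of the windows were called instead of 7, and over the genome 4952 were higher instead of 23982. Deviations of samples with the same number correlated by 0.01, -0.01 and 0.04 over tiles. Only control 3 correlated best with its own number. With so few samples in each group, these correlations cannot decide whether samples with the same number belong together. No conclusion on pairing is drawn from them or from the lower counts.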
